A study of Homo sapiens with 2 samples.

Results

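The genes described are those that sense a DNA double-strand break and pass the signal on: MRE11, RAD50, NBN, ATM, CHEK2, MDC1, TP53BP1, RNF8, RNF168 and H2AX. They were chosen by name, and all 10 had a single row among the 17912 entries of the expression table. The samples were 2 replicate libraries of polyadenylated RNA from U2OS, an established human osteosarcoma cell line, grown asynchronously and exposed for 18 h to 0.3 µM aphidicolin, a drug that blocks replicative DNA polymerases. Both libraries belong to this 1 group, and no untreated library was analysed here, so the values are levels in treated cells and not responses. Whether each library had its own culture is not stated in the labels, and the SDs and p-values below measure only the spread between these libraries, which may be technical.

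At a break, the MRE11, RAD50 and NBN proteins form the MRN complex, which binds the DNA ends and activates the kinase ATM. ATM phosphorylates the histone variant H2AX near its end, the mediator MDC1 binds that mark, and the ubiquitin ligases RNF8 and RNF168 then modify chromatin so that 53BP1, the product of TP53BP1, can settle there. ATM also activates the kinase CHK2, the product of CHEK2, which acts on cell cycle regulators. This pathway acts largely through phosphorylation and ubiquitin, which RNA levels do not measure.

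The mark that opens the chromatin part of the pathway sits at the end of the H2AX coding sequence, which covers 432 bases with its stop codon. The last 30 bases, on the minus strand of chromosome 11 from 119094963 to 119094992 (GRCh38, GENCODE release 29), are shown because their capitals are the codons of the phosphorylated serine and the glutamine after it, the residue pair that ATM recognises.
H2AX coding end: aaggccacccaggccTCCCAGgagtactaa

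H2AX also had the promoter with the most CCAAT boxes among the members, and it is shown with that of ATM, whose window reaches into that of its neighbour. Promoters were taken from RefSeq (GRCh38.p14) as 250 bases before and 50 bases after the gene's start, 5′ to 3′ on the gene's strand, and 9 of the 10 members matched. Where RefSeq lists more than 1 start the first listed was used, and of the members this applied to ATM, whose other window also held CCAAT and no other motif searched. The H2AX promoter is chr11:119095416-119095715 on the minus strand, and that of ATM is chr11:108222817-108223116 on the plus strand. Capitals mark CCAAT on either strand (ATTGG when reversed) and, in H2AX, TATAAA.
H2AX promoter: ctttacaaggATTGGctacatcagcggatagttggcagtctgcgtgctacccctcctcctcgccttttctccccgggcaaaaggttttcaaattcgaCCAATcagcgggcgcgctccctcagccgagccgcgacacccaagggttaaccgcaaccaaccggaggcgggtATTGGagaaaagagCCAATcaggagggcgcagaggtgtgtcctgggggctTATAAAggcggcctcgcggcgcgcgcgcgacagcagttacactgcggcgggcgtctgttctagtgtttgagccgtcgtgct
ATM promoter: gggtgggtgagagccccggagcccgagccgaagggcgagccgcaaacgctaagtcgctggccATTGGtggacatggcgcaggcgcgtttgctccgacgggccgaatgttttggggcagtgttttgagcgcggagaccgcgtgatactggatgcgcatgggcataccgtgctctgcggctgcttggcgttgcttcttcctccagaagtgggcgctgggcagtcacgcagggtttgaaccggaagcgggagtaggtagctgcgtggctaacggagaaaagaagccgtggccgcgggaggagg

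Levels are given as RPKM, reads scaled to exonic length and library size, which allows genes of different length to be set in order. The total was 13227805 reads in replicate 1 and 13020149 in replicate 2. Means are over both libraries with the SD (n = 2). In all, 9 of 10 members reached at least 1 RPKM in both libraries, against 66.7% of all entries. Their median was 8.68 RPKM, at percentile 68.4 of the entries, whose own median was 3.53 RPKM. The members spanned a 233-fold range, with H2AX alone above 100 RPKM and RAD50 alone below 1 RPKM. The mesenchymal markers SPARC (280 RPKM), VIM (249 RPKM) and COL1A1 (209 RPKM) were high, and the osteoblast regulator RUNX2 was at 8.55 RPKM. The osteoblast marker ALPL was at 2.23 RPKM and BGLAP at 0.277 RPKM, COL1A2 was at 0.0515 RPKM, and SP7 and IBSP were not listed. In all, 5 of the 7 listed osteoblast and mesenchymal genes reached 1 RPKM in both libraries. Of markers of other cells, 1 of 6 listed haematopoietic, 4 of 6 epithelial and 0 of 4 listed endothelial genes reached 1 RPKM. The haematopoietic genes summed to 2.71 RPKM in replicate 1 and 2.75 in replicate 2, the epithelial genes to 11.3 and 11.98, and the endothelial genes to 1.41 and 1.33. The highest of them was MUC1 at 4.35 RPKM.

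**Figure D1:**
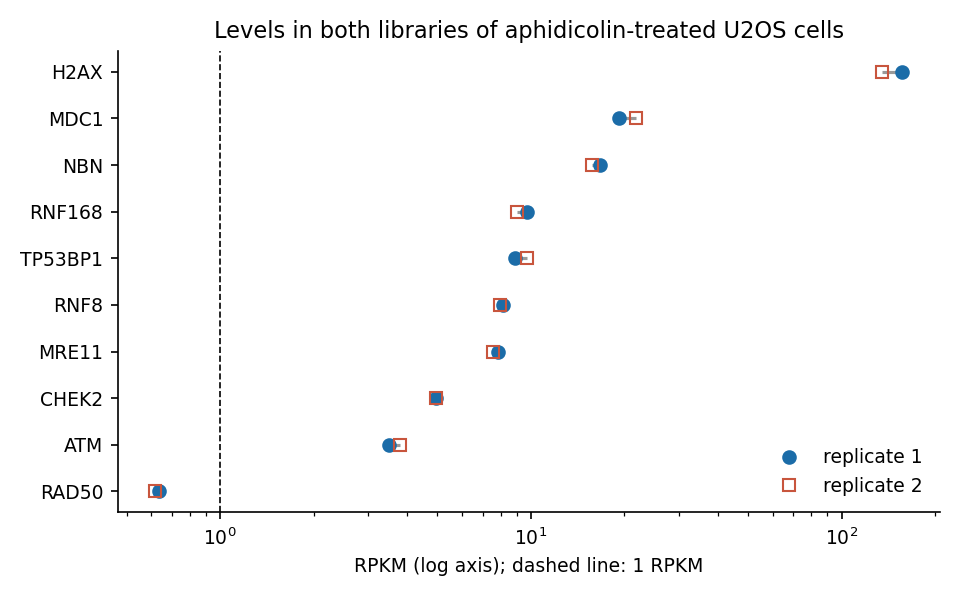
RPKM of the 10 genes (log axis) in replicate 1 (filled circles) and replicate 2 (open squares), in order of the mean, with a dashed line at 1 RPKM. H2AX lies far to the right at 157 and 135 RPKM, RAD50 lies left of the line at 0.637 and 0.618 RPKM, and the other genes lie between 3.50 and 21.8 RPKM.

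Among the genes of the MRN complex, NBN was highest and RAD50 lowest. NBN, on chromosome 8 from 89933336 to 90003228, encodes the subunit that recruits ATM. It had 16.8 RPKM in replicate 1 and 15.8 RPKM in replicate 2, a mean of 16.3 ± 0.68. MRE11, on chromosome 11 from 94415578 to 94493908, encodes the nuclease. It had 7.84 and 7.57 RPKM, a mean of 7.70 ± 0.19. RAD50, which encodes the long coiled-coil ATPase that tethers DNA ends, had 0.637 and 0.618 RPKM, a mean of 0.627 ± 0.013. The libraries of each gene lay close together, and the ranges of the 3 genes did not overlap. RAD50 rested on 89 reads in replicate 1 and 85 in replicate 2, where MRE11 had 797 and 758 and NBN had 1364 and 1265. The 95% Poisson interval of RAD50, which covers counting error only, was 0.511 to 0.784 RPKM in replicate 1 and 0.494 to 0.764 RPKM in replicate 2, so counting error did not bring it to 1 RPKM.

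RAD50 differs from the other members in how its exons are annotated. It lies on chromosome 5 from 132556019 to 132646344 on the plus strand (GRCh38, GENCODE release 29). A second protein-coding gene, AC116366.3, runs on the same strand from 132410832 to 132646079 and covers 7784 of the 9771 exonic bases of RAD50, or 79.7%. AC116366.3 is not listed in the table, and whether the annotation used by the authors holds it is not given in the sources used here. RNF8 shared 2.22% of its exonic bases on its own strand, with the small RNA pseudogene RN7SL273P, and the other 8 members shared none. Of the words of 50 bases in annotated RAD50 transcripts, 77.7% also occurred in transcripts of AC116366.3.

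The low level of RAD50 thus went together with exons that 2 genes claim. Reads that fall on such exons can be discarded or split in counting, and how the authors treated them is not stated either. Over all listed protein-coding genes, 10 of the 69 that shared at least 75% of their exonic bases on the same strand reached 1 RPKM in both libraries (14.5%), against 9709 of the 13198 that shared none (73.6%). The median was 0.310 RPKM in the class of 69 genes and 5.12 RPKM in the class that shared none. In the classes between, 203 of 458 genes that shared 25 to under 75% reached the level (44.3%). Of 1835 genes that shared above 0 and under 25%, 1420 did (77.4%). On the other strand the class counted began at 25%, a different cut from that of the 69 genes. Of 523 genes that shared at least 25% on the other strand and none on their own, 71.7% reached the level. Among 8259 genes that shared no base on either strand 71.8% did, and the medians were 3.30 and 5.00 RPKM. If all RAD50 reads came from the 1987 exonic bases that AC116366.3 does not cover, RAD50 would stand at 3.39 and 3.29 RPKM over those bases. The 1987 bases are those of release 29, while the reads were recovered with a RAD50 length of 10565 bases. How many of the bases in the authors' annotation are shared is not known. The part of the shared bases in the RAD50 level was not tested.

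**Figure D2:**
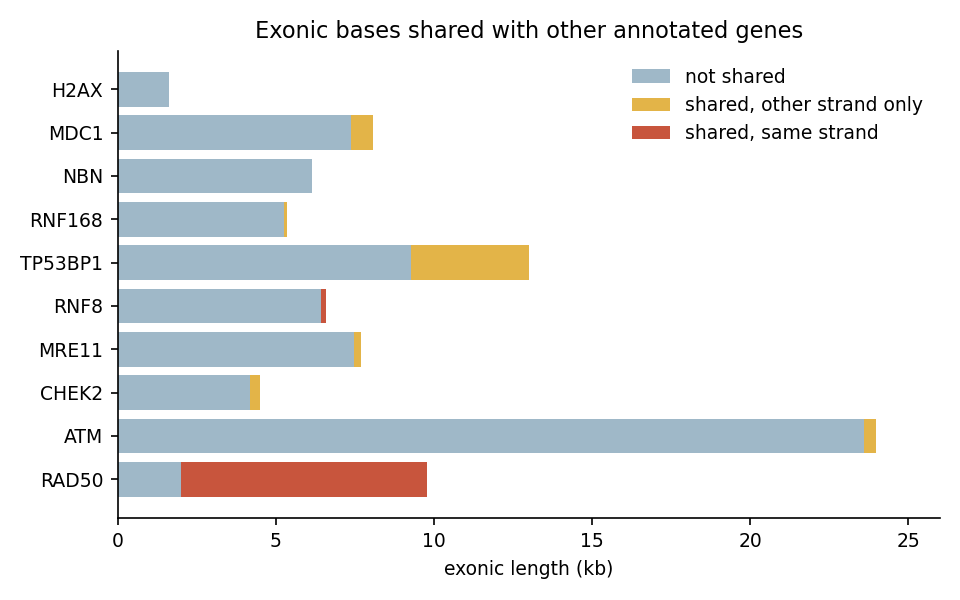
Exonic length of each gene in kilobases, with the bases shared with no other annotated gene (grey), shared only on the other strand (yellow) and shared on the same strand (red). Most of the RAD50 bar is red (7784 of 9771 bases), and TP53BP1 has the largest yellow part (3732 of 12991 bases).

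ATM, the kinase that the MRN complex activates, was the lowest member after RAD50. It had 3.50 RPKM in replicate 1 and 3.79 RPKM in replicate 2, a mean of 3.65 ± 0.21, from 1109 and 1184 reads. ATM is on chromosome 11 from 108222484 to 108369102 and spans 147 kb, the longest span of the members, with 66 exonic blocks and 23972 exonic bases. Its annotated principal transcript has 13147 bases, and reads divided by that length gave 6.65 ± 0.38. Which isoforms were present was not measured, so the level of ATM per length depends on which of these lengths is taken.

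CHEK2, on chromosome 22 from 28687743 to 28742422, encodes the effector kinase CHK2. It had 4.96 RPKM in both libraries, with a mean of 4.96 ± 0.0045 from 295 and 290 reads. That spread was smaller than the counting error of 5.85% of the mean that these reads allow, so the near equality is no measure of precision. Divided by its principal transcript of 1959 bases in place of the 4493 exonic bases, CHEK2 stood at 11.4 ± 0.010. CHEK2 has partial pseudogene copies, and 4.81% of its words of 50 bases also occurred in transcripts of genes elsewhere, and 1.84% of all its words occurred in CHEK2P2. Neither CHEK2P2 nor MRE11P1, a pseudogene that held 1.40% of the words of MRE11, is listed in the table. For the other members the share found elsewhere was at most 2.53%, that of MRE11, apart from the words that RAD50 shares at its own locus. These shares cover identical words in annotated transcripts only, and set no upper limit on the error of the counts.

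H2AX, the histone variant that carries the ATM mark, was the highest member. It had 157 RPKM in replicate 1 and 135 RPKM in replicate 2, a mean of 146 ± 15.6, above 99.2% of all entries and 7.12 times the next member, MDC1. H2AX is a single-exon gene of 1614 bases on chromosome 11 from 119093854 to 119095467 and had 3352 and 2836 reads. Unlike most histone genes it yields a polyadenylated transcript besides one that ends in a stem-loop, and only the polyadenylated form was selected here. Among other H2A variant genes in the same RNA, H2AZ1 stood at 182 ± 6.0 RPKM, H2AZ2 at 40.9 ± 1.2, MACROH2A2 at 32.4 ± 1.7, MACROH2A1 at 14.1 ± 0.29 and H2AJ at 3.77 ± 0.36. Per exonic length H2AX thus lay between H2AZ1 and H2AZ2, and its range did not overlap that of either. Reads not divided by length gave another order. MACROH2A1 had 3248 and 3292 reads, fewer than H2AX in replicate 1 and more in replicate 2, while H2AZ2 had 2627 and 2478. Levels per principal transcript length were not computed for these other variants.

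The mediators downstream of the mark lay within a narrower band. MDC1, on chromosome 6 from 30699807 to 30717889, encodes the adaptor that binds phosphorylated H2AX. It had 19.2 RPKM in replicate 1 and 21.8 RPKM in replicate 2, a mean of 20.5 ± 1.8. RNF168, on chromosome 3 from 196468783 to 196503768, encodes the ligase that ubiquitinates H2A-type histones. It had 9.73 and 9.03 RPKM, a mean of 9.38 ± 0.49. RNF8, on chromosome 6 from 37353972 to 37394738, encodes the ligase that MDC1 brings to the break. It had 8.11 and 7.96 RPKM, a mean of 8.03 ± 0.11. MDC1 thus stood above both ligases in each library. TP53BP1 is on chromosome 15 from 43403061 to 43510728, and its product reads the ubiquitin mark and a methyl mark of the nucleosome. It had 8.90 and 9.74 RPKM, a mean of 9.32 ± 0.59. RNF168 was above TP53BP1 in replicate 1 and below it in replicate 2, so their ranges overlapped. TP53BP1 shares 28.7% of its exonic bases with TUBGCP4, a gamma-tubulin complex gene on the other strand that stood at 3.84 ± 0.010 RPKM, and whether the counting used strand is not given in the sources used here.

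Ranked by mean RPKM, the order was H2AX, MDC1, NBN, RNF168, TP53BP1, RNF8, MRE11, CHEK2, ATM and RAD50. Of the 9 pairs of neighbours in this order, RNF168 and TP53BP1 were the 1 pair whose ranges over the libraries overlapped. The gap between RNF8 and MRE11 was narrow, with 7.96 RPKM as the lower RNF8 value and 7.84 RPKM as the higher MRE11 value, and their 95% counting intervals overlapped in both libraries, as did those of RNF168 and TP53BP1. Those of TP53BP1 and RNF8 overlapped in replicate 1 and not in replicate 2, and those of the other 6 pairs overlapped in neither. Because all but 3 gaps were under 1.6-fold, the length used in the division matters for the middle of the order. With the principal transcript length, 7 members changed rank: NBN stood at 21.5 ± 0.90 and TP53BP1 at 19.1 ± 1.2, beside MDC1 at 20.6 ± 1.8. H2AX stayed first and RAD50 last, at 0.798 ± 0.017.

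**Figure D3:**
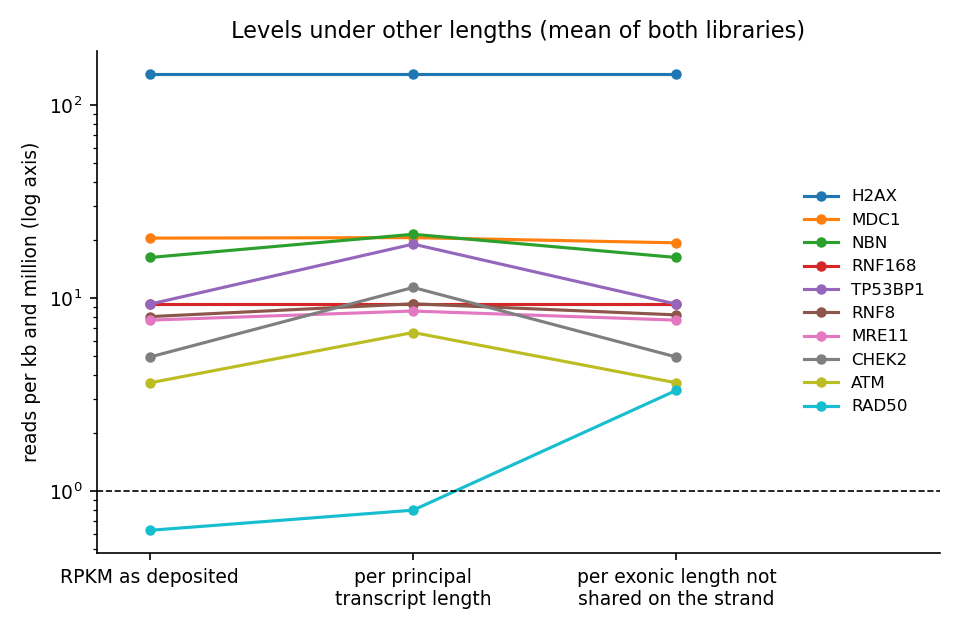
Mean level of each gene on a log axis as deposited (left), with reads divided by the length of the principal transcript (middle) and by the exonic length not shared on the same strand (right), with a dashed line at 1. H2AX is highest throughout, CHEK2 moves between 4.96 and 11.4, and RAD50 crosses the line at the right, at 3.34. There all its reads are kept and only the length is shortened, which can only raise RAD50.

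The libraries were compared on reads recovered from the RPKM, with a 2-sided exact binomial test and Benjamini-Hochberg adjustment over 15409 genes. This test compares these libraries and not conditions, and covers counting error only. Of all genes 1.3% differed, with 0.5% above in replicate 1 and 0.798% above in replicate 2. Of the 10 members it called H2AX and MDC1, in opposite directions. H2AX was higher in replicate 1, at 0.21 ± 0.037 for log2 of replicate 1 over replicate 2 (SE from counting, adjusted p = 4.08e-06, exact binomial). MDC1 was lower in replicate 1, with a log2 ratio of -0.19 ± 0.045 (adjusted p = 0.00551, exact binomial). The share of 1.3% includes genes with few reads, where a call is harder to reach. Among 6414 genes with at least 1000 reads in sum, 176 were called. Among these 6414 genes, the size of the H2AX ratio exceeded that of 98.5% and the MDC1 ratio that of 97.2%.

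The other 8 members did not pass. TP53BP1 had a log2 ratio of -0.14 ± 0.051 (unadjusted p = 0.00778, adjusted p = 0.217, exact binomial) and ATM one of -0.12 ± 0.060 (unadjusted p = 0.0407, adjusted p = 0.447, exact binomial). NBN and RNF168 were at 0.08 and 0.10. RNF8, MRE11 and RAD50 were between 0.02 and 0.04, and CHEK2 was at -0.01. Over 12126 genes with at least 100 reads, the chi-square of the read counts was 2.11 for each degree of freedom, more than counting error alone gives. Of the H2A variant genes, H2AZ1 came nearest to passing, with a log2 ratio of 0.06 (adjusted p = 0.387, exact binomial).

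**Figure D4:**
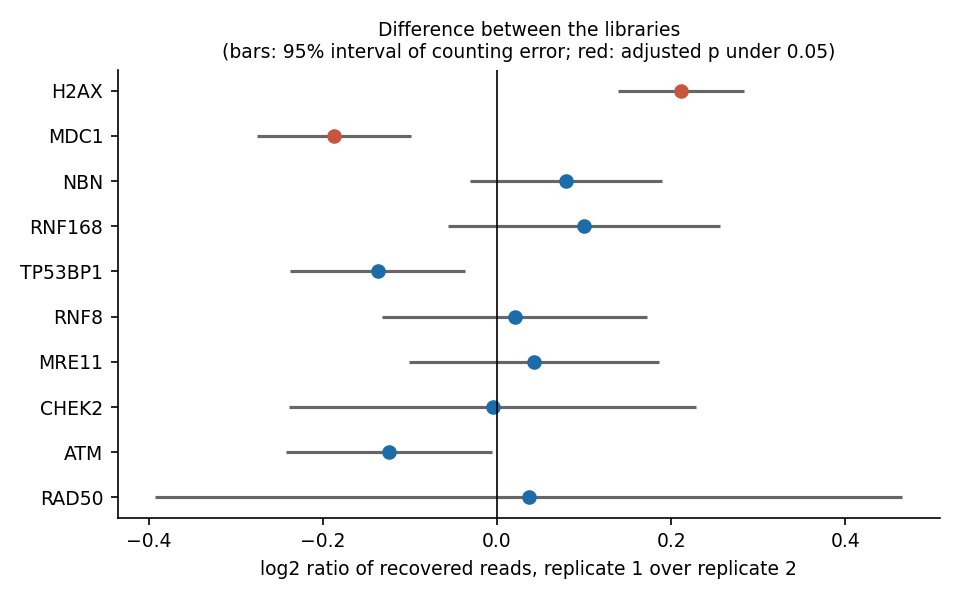
Log2 ratio of recovered reads in replicate 1 over replicate 2 for each gene, with bars for the 95% interval of counting error and red points for an adjusted p under 0.05. H2AX (0.21) lies right of 0, MDC1 (-0.19) lies left of it, and RAD50 has the widest interval, from -0.39 to 0.47.

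Several members start close to another gene. The annotated start of a protein-coding gene on the other strand lay within 1 kb for 5 of 10 members (TP53BP1, MRE11, CHEK2, ATM and RAD50), against 15.3% of 15560 listed protein-coding genes. These distances are between the outermost starts in GENCODE release 29, which for ATM lies 583 bases before the RefSeq start of the promoter window, for CHEK2 602 and for RAD50 958. ATM lies 158 bases by start from NPAT, a coactivator of histone gene transcription, and the RefSeq windows of both genes, built on the RefSeq starts, share 72 bases. NPAT had 6.53 RPKM in replicate 1 and 7.20 RPKM in replicate 2, above ATM in both per exonic length. MRE11 starts 279 bases from ANKRD49, at 7.41 ± 0.032 RPKM, and CHEK2 starts 391 bases from HSCB, at 6.16 ± 0.19 RPKM. TP53BP1 starts 230 bases from MAP1A, a microtubule-associated protein gene at 30.02 ± 0.67 RPKM, above TP53BP1 in both libraries. RAD50 starts 819 bases from IL5, which was not listed. Of 6 neighbouring genes 4 reached 1 RPKM, with the tubulin gene TUBB highest at 733 ± 22 RPKM, and C11orf65 beside ATM (0.213 ± 0.045) and TH2LCRR beside RAD50 (0.212 ± 0.10) did not. H2AX, ATM and MRE11 all lie on chromosome 11, but far apart.

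In the promoters of the 9 matched members, CCAAT was found in 7, against 35.7% of 27305 promoters of the same length, searching both strands. The GC box GGGCGG was found in 7, against 44.6%, the ETS motif CCGGAAGT in 3 (MRE11, RAD50 and RNF168), against 4.44%, and TATAAA in H2AX alone, against 12% of all promoters. The H2AX promoter held 4 CCAAT matches, a number reached by 1.06% of all promoters, and its TATAAA began 31 bases before the gene's start. The E2F motifs TTTCCCGC and TTTGGCGC and an NRF1 motif were in none of the 9, and 1.66%, 0.659% and 1.36% of all promoters held them. The member promoters had 16 to 30 CG pairs, against a median of 14 over all promoters. These matches are letters in a window and not binding sites.

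Genes of the wider pathway were counted against the same level of 1 RPKM in both libraries, which 66.7% of all entries reached. Of 12 genes that activate ATM or act downstream of ATM and CHK2, 12 reached 1 RPKM, with a median of 17.2 RPKM. They were led by the heterochromatin corepressor TRIM28 at 58.3 ± 3.0, E2F1 at 40.4 ± 3.0 and the cohesin gene SMC1A at 32.8 ± 0.82 RPKM. Of 16 ubiquitin and SUMO genes 15 passed, with a median of 10.6 RPKM, led by the segregase gene VCP at 128 ± 0.96, BMI1 at 23.1 ± 0.49 and the ligase gene TRIP12, which limits RNF168, at 22.2 ± 0.30. UBE2N, the ubiquitin-conjugating enzyme that works with RNF8, stood at 11.5 ± 0.10 RPKM. L3MBTL1 was below the level at 0.610 ± 0.038 RPKM. All 7 genes of the BRCA1-A complex, counted with BARD1, passed, with a median of 8.59 RPKM, led by BABAM2 at 21.4 ± 0.76, the deubiquitinase gene BRCC3 at 18.3 ± 0.46 and BRCA1 at 15.5 ± 0.39.

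Of 13 effectors and regulators of 53BP1, 12 passed, with a median of 8.07 RPKM. They were led by the dynein light chain gene DYNLL1 at 52.8 ± 1.4, MAD2L2 at 33.0 ± 0.25 and USP28 at 16.6 ± 0.28 RPKM. RIF1, which 53BP1 recruits to hold back end resection, stood at 9.25 ± 0.17 RPKM, close to TP53BP1 itself per exonic length. The shieldin genes SHLD3, SHLD2 and SHLD1 stood at 5.84 ± 0.42, 5.77 ± 0.55 and 1.24 ± 0.088 RPKM. PAXIP1 was below the level at 0.909 ± 0.018. All 11 listed phosphatase and eraser genes passed, with a median of 13.2 RPKM, led by the phosphatase genes PPP4C at 34.3 ± 0.049, PPP2CA at 24.5 ± 0.52 and PPM1D at 20.97 ± 0.35, and EYA4 and USP44 were not listed. PPM1D, which encodes the WIP1 phosphatase that removes the H2AX mark, thus lay above ATM in both libraries. All 7 resection genes passed, with a median of 24.6 RPKM, led by the single-strand binding genes RPA2 at 41.8 ± 0.54, RPA1 at 28.6 ± 1.3 and RPA3 at 28.4 ± 0.92. Of 66 genes tested in these 6 lists, 0 differed between the libraries by the adjusted exact binomial test, against 1.3% of all genes, and 7 had an unadjusted p under 0.05, against 10.4% of all genes.

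**Figure D5:**
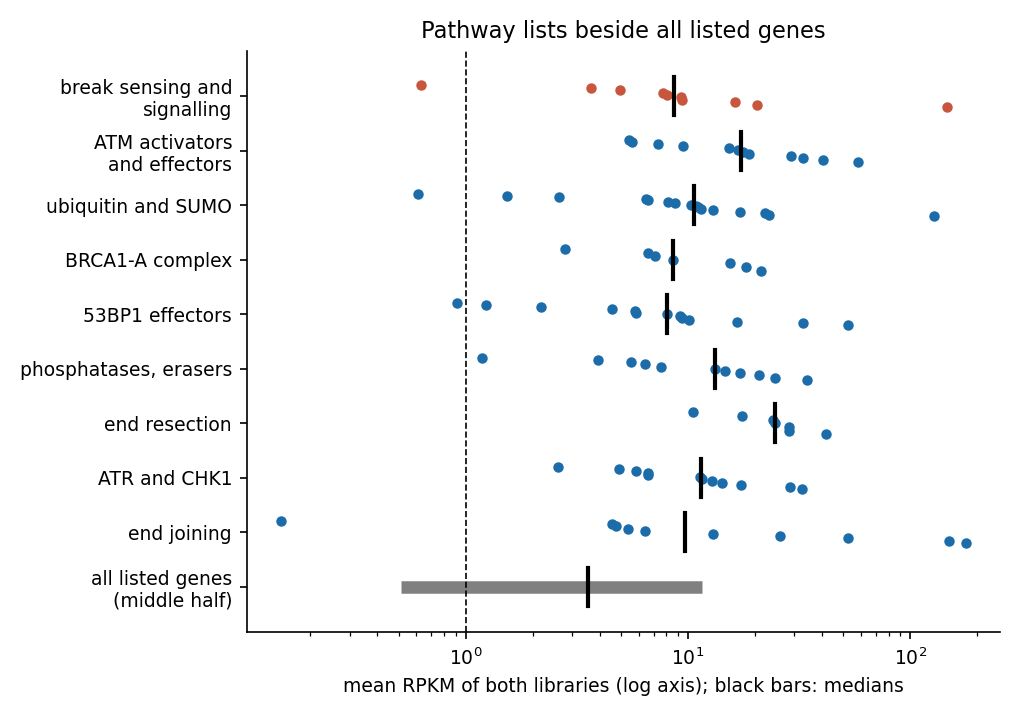
Mean RPKM of both libraries (log axis) for the members (red, top) and 8 other lists (blue), with black bars at the medians, beside the range between the quartiles of all listed genes (grey, bottom, 0.511 to 11.6 RPKM). Each list's median lies to the right of the median of all genes at 3.53 RPKM.

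Related pathways were set beside the members by their medians. The members' median of 8.68 RPKM compares with 11.5 RPKM for 12 genes of the ATR and CHK1 checkpoint, which answers single-stranded DNA at stalled forks, and 9.72 RPKM for 10 genes of non-homologous end joining. All 12 checkpoint genes passed 1 RPKM, led by TOPBP1 at 32.5 ± 1.1, TIMELESS at 28.7 ± 0.44 and RAD17 at 17.3 ± 0.25. Per exonic length, ATR stood at 2.59 ± 0.0047 RPKM from 934 and 917 reads, below ATM in both libraries. CHEK1 stood at 11.6 ± 0.25 RPKM, above CHEK2 in both. Per principal transcript length ATM stood at 6.65 and CHEK2 at 11.4. That length was not applied to ATR or CHEK1, so whether these 2 orders hold with it was not tested. Of the end joining genes 9 of 10 passed, led by XRCC6 at 178 ± 3.2, XRCC5 at 149 ± 1.5 and PRKDC at 52.8 ± 1.8. PRKDC was lower in replicate 1, with a log2 ratio of -0.08 (adjusted p = 0.0116, exact binomial). NHEJ1 was below the level at 0.147 ± 0.036 RPKM from 5 and 7 reads, and 65.4% of its exonic bases are shared with another gene on the same strand. L3MBTL1, also below the level, shared 1.29% in this way and PAXIP1 none. PAGR1, a 53BP1 effector gene that shared 66.0%, passed at 2.18 ± 0.031 RPKM. No test of a difference between these lists was made, since genes are not replicates.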

How the data were processed

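The authors deposited RPKM, per the file headers, for each of 2 libraries. The submitters' processing notes name Trim Galore, HISAT2, featureCounts, hg38 and GRCh38.p13. Their versions, the annotation, strand use and filters are not stated there. Members and lists were chosen with earlier results of these data known. Symbols with several rows (58) were left out, and values shared by several symbols counted once. The table holds no 0. Symbols were matched to GENCODE release 29 for 96.4% of genes. Reads were recovered from the RPKM: the ratio of the columns gave both library totals, and each gene's reads were set so that its length was whole and nearest to GENCODE's. That length equalled GENCODE's for 43.9% of matched genes and 7 of 10 members; that of RAD50 came to 10565, of MDC1 to 7622 and of RNF8 to 6564 bases. The authors' annotation thus differs from release 29, and whether it holds AC116366.3 is not known. The exact binomial test used trimmed mean scaling (factor 0.995 for replicate 2) and genes with at least 10 reads in sum. The test was tried on simulated reads of 15246 genes: it found 99.0% of 200 genes set to differ 2-fold, and 4.35% of its calls were false. The simulated reads held counting error only, while the chi-square of the real counts was 2.11 for each degree of freedom. The share of false calls between the real libraries was therefore not measured. Named genes are all members, the 3 highest and all below 1 RPKM of each pathway list, and genes that overlap a member or start near it; cell type markers are given by counts and sums. Marker genes named, UBE2N, RIF1, PAGR1, shieldin genes, ATR, CHEK1, MACROH2A1 and H2AJ were added after their values were seen. Protein features planned in the design were not analysed here. Software was scipy 1.17.1, pandas 2.3.3 and numpy 2.4.6 under Python 3.11.15.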

Additional observations from a re-analysis of the deposited data

How the results depend on the processing

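The count of members at 1 RPKM was 9, also in each library alone and with the principal transcript length. It was 7 at 5 RPKM. All 10 members, RAD50 included, passed at 0.5 RPKM and at 1 CPM. All 10 also passed with exonic length without bases shared on the same strand. That setting keeps every RAD50 read and only shortens its length, so it could only raise RAD50. These counts lay within 1.5 times of 9, a limit that 10 members cannot exceed upward. The share of all genes under these settings was not counted. The members' median (8.68 RPKM) was 40.5 in TPM, 73.3 in CPM, which is not divided by length, 8.65 after log2 averaging with a pseudocount of 1, 0.1 or none, and 8.50 to 8.51 without either replicate. Alternatives chosen after seeing the data gave 10.4 with the principal transcript length, 8.76 with exonic length without bases shared on the same strand, and 9.32 without RAD50. Ranks changed for 7 members in CPM and for 7 with the principal transcript length, and for 0 to 2 without either replicate. The percentile of the median (68.4) was 63.9 among genes of at least 0.1 RPKM, 64.1 among protein-coding genes and 67.9 without either replicate. The 2 calls between the libraries held under all 4 other settings. Of 56 list counts, 4 moved beyond 1.5 times, all in marker lists of other cells. Except for the units and lengths, the cause was not tested. No paired analysis was possible because there is 1 group. Depth limits the genes with few reads, among the members RAD50 with 89 and 85.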
